A study of Homo sapiens with 26 samples.

Results

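Estrogen receptor (ER) sites found under the progestin R5020 were set against ER sites found under estradiol (E2) in T47D cells that lack the progesterone receptor (PR). The comparison took every site of both lists, 9141 with R5020 and 7742 with E2, which together are 16883 of the 87206 sites in the 10 lists of the series. Sites with at least 1 bp in common between the lists are called shared. All positions are of the hg19 build.

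T47D, an established cell line from a human breast cancer, has both ER and PR. The series used T47D cells and PR-deficient T47D cells, and how the PR-deficient cells were obtained, or whether they are 1 clone, does not appear in the sources used. Cells were kept without steroids in charcoal-stripped serum, and were then given 10 nM R5020, 10 nM E2, both hormones at 10 nM each, or vehicle for 45 min. ER was recovered with 1 ER antibody in chromatin immunoprecipitation and sequencing (ChIP-seq). With 1 library in each group there is no spread between replicates to measure, and no test between treatments was possible. The intervals given with shares are 95% intervals by the exact Clopper-Pearson method and express counting error across sites alone. Neighbouring sites are not independent, so the intervals are narrower than the uncertainty of a repeated experiment. Read depth is not given. The labels name 1 vehicle ER library of PR-deficient cells and call each list vehicle-subtracted, so the R5020 and E2 lists share that control. The loss of PR cannot be checked in lists of ER sites.

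ER is a nuclear receptor that, once it has bound an estrogen such as E2, pairs up and binds DNA at estrogen response elements, mostly in enhancers away from promoters. PR is a related receptor for progesterone, and its gene is itself a known target of ER. R5020 (promegestone) is a synthetic ligand used as a PR agonist. In breast cancer cells that carry both receptors, ligand-bound PR is known to bind near ER and to change where ER is found. The pair of lists therefore asks what ER ChIP yields when the progestin is given to cells without its main receptor, beside the response to the natural estrogen.

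Most ER sites were listed with 1 hormone alone. Of the R5020 sites, 1408 of 9141 (15.4%, 14.7 to 16.2) overlapped an E2 site. Of the E2 sites, 1136 of 7742 (14.7%, 13.9 to 15.5) overlapped an R5020 site. The other 7733 R5020 sites and 6606 E2 sites had no partner. Both lists had the same vehicle library subtracted, and its part in the overlap was not tested.

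The lists differed in kind. The median R5020 site was 236 bp long, with an interquartile range of 190 to 309 bp, while the median E2 site was 1076.5 bp long, with a range of 842 to 1506 bp. Only 8 R5020 sites (0.0875%) were longer than 1 kb, against 4483 E2 sites (57.9%). The R5020 list was thus longer in sites but covered less DNA, 2.42 Mb against 9.92 Mb for E2. The score that the authors gave each site moved in even steps, of 4.86 in the R5020 list and 1.61 in the E2 list, so scores are given here as steps within their own list. R5020 sites ran from 6 to 23 steps with a median of 6, which means that at least 1 in 2 of them stood at the lowest score kept. That lowest score was held by 4764 R5020 sites (52.1%) and by 727 E2 sites (9.39%). E2 sites ran from 16 to 363 steps with a median of 25. The order of the 2 counts hung on a single step of score, which is a larger interval of score in the R5020 list. With the lowest score raised by 1 step the R5020 list dropped to 4377 sites and the E2 list to 7015. In T47D cells the ER list under R5020 had a median length of 248 bp with 46.3% of 5338 sites at the lowest score, and the ER list under E2 a median of 1171 bp with 5.53% of 4014 sites there. Width did not follow the hormone in every list. ER sites under both hormones had a median of 1329 bp in PR-deficient cells but 209 bp in T47D cells, where 0.395% stood at the lowest score. The PR list of T47D cells under E2 was narrow, at 249 bp, with 58.5% at the lowest score.

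**Figure D1:**
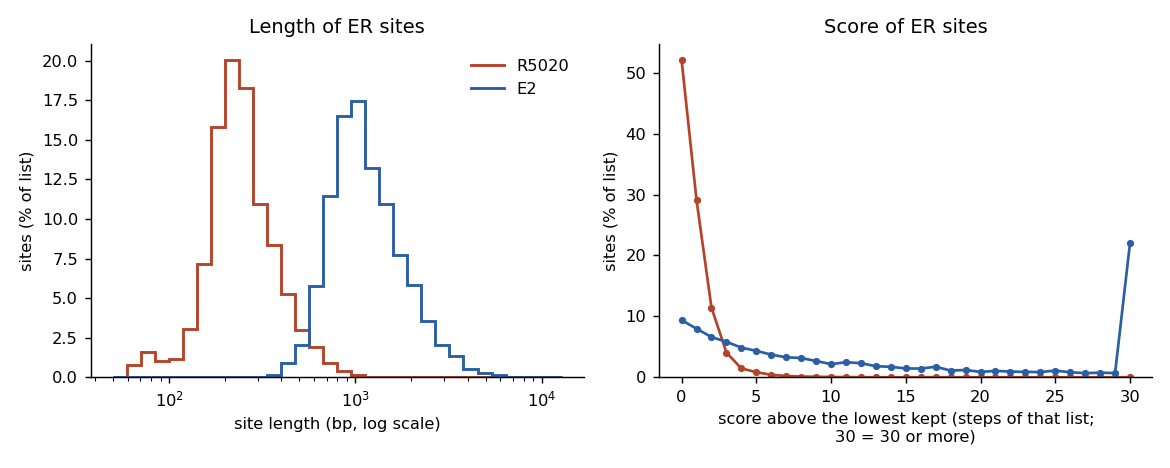
Share of each list (%, vertical axes) by site length (bp, log scale, left) and by score above the lowest kept (steps of that list, right, with 30 standing for 30 or more) in the R5020 and E2 lists of PR-deficient cells, 1 library each. R5020 sites centre on a median of 236 bp and pile up at the lowest score, whereas E2 sites centre on 1076.5 bp and spread over many scores.

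Shared R5020 sites were narrow stretches inside wide E2 sites. Of the 1408 shared R5020 sites, 1349 (95.8%) lay wholly inside an E2 site, and 1 site touched 2 E2 sites. The 1136 shared E2 sites held a single R5020 site in 924 cases, 2 in 173 cases and 3 or more in 39 cases, with at most 7. The centres of shared R5020 sites lay at a median of 259.5 bp from the E2 centre, with an interquartile range of 108 to 526 bp. The R5020 centre fell in the inner 50% of the E2 site for 1035 of them (73.5%). Shared stretches added up to 444 kb, which is 18.3% of the R5020 DNA and 4.47% of the E2 DNA. Because of the unequal widths, only 58 of 1409 overlapping pairs were within 2-fold of each other in length. Shared sites were the longer ones in both lists, with a median of 279 bp against 230 bp for sites of R5020 alone, and of 1533.5 bp against 1030 bp for sites of E2 alone. The 1 bp rule itself favours longer sites. A rule asking that the common stretch fill at least 50% of each site kept 57 R5020 sites (0.624%) and 57 E2 sites (0.736%), a drop that the lengths set in advance.

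**Figure D2:**
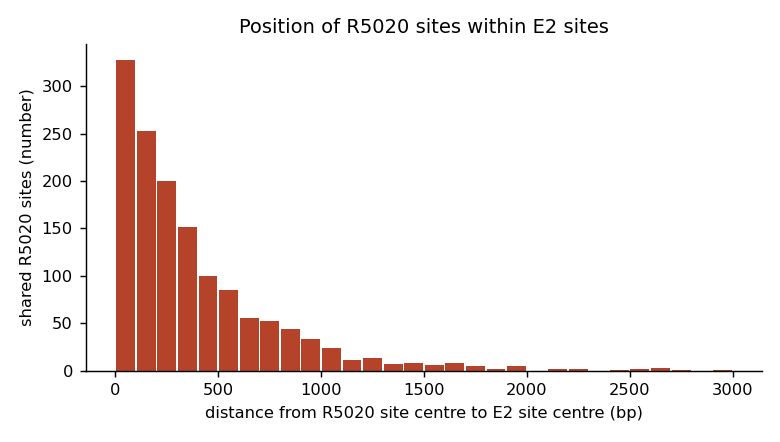
Number of shared R5020 sites (vertical axis) by the distance in bp from their centre to the centre of the E2 site they overlap (horizontal axis, classes of 100 bp). The class up to 100 bp is the fullest, with 328 of 1408 sites, and 3 sites beyond 3000 bp are not drawn.

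Sites without a partner were seldom near misses. Of the 7733 R5020 sites without an overlap, 202 (2.61%) had an E2 site within 1 kb and 1393 (18%) within 10 kb, and the median gap to the nearest E2 site was 53.1 kb. Of the 6606 E2 sites without an overlap, 149 (2.26%) had an R5020 site within 1 kb and 1019 (15.4%) within 10 kb, with a median gap of 98.6 kb. Counting sites up to 1 kb apart as shared gave 17.6% of the R5020 sites and 16.6% of the E2 sites.

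The highest R5020 scores were not found at E2 sites more often than the lowest. At the lowest score, 702 of 4764 R5020 sites (14.7%, 13.7 to 15.8) lay at an E2 site. The share was 16% (14.6 to 17.5) for sites 1 step higher, 17.1% (14.9 to 19.5) at 2 steps, 16.7% (13 to 20.9) at 3 steps and 19.5% (13.2 to 27.3) at 4 steps. Of the 163 sites at 5 or more steps above the lowest, 13 did so (7.98%, 4.31 to 13.3), so the interval of the top class lay below those of the first 3 classes. Part of the top of the R5020 list lay beside long stretches in which no list of the series held any site. Such stretches, of 3 Mb or more, occurred 26 times on 24 chromosomes. Of the 100 R5020 sites of highest score, 24 (24%, 16 to 33.6) were within 2 Mb of one, against 658 of all 9141 R5020 sites (7.2%, 6.68 to 7.75). None of the 100 highest E2 sites was (0%, 0 to 3.62), and 168 of all 7742 E2 sites were (2.17%, 1.86 to 2.52). Without those sites and without chromosome Y the top class was 11 of 121 (9.09%, 4.63 to 15.7), and its interval then overlapped that of the lowest class (15.2%, 14.2 to 16.3). The classes at 1 to 4 steps then gave 16.7% (15.3 to 18.3), 18.5% (16 to 21.1), 19.9% (15.6 to 24.7) and 23.2% (15.8 to 32.1).

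E2 sites of high score were shared with R5020 somewhat less often than E2 sites of low score, apart from the very top. The highest-scoring 20% of E2 sites overlapped R5020 in 176 of 1548 cases (11.4%, 9.83 to 13.1), and the lowest-scoring 20% in 263 of 1549 cases (17%, 15.1 to 18.9). The 3 groups between them gave 12.7%, 13.8% and 18.5%, from higher to lower score. These shares ranged more widely over length than over score. The longest 20% of E2 sites were shared in 497 of 1548 cases (32.1%, 29.8 to 34.5) and the shortest 20% in 64 of 1549 cases (4.13%, 3.2 to 5.25). With every site set to 200 bp around its centre, 4.07% (3.14 to 5.18) of the highest-scoring group and 9.3% (7.9 to 10.9) of the lowest-scoring group were shared. Of the 100 highest E2 sites, which had a median length of 1924 bp, 26 were shared (26%, 17.7 to 35.7), but 8 (8%, 3.52 to 15.2) at 200 bp.

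The leading shared sites depended on which score ranked them. By R5020 score the first was the top site of the whole R5020 list, on chromosome 12 at 38447052 to 38447316. It had 23 steps with R5020, and the E2 site around it, at 38446857 to 38447677, had 30 steps and ranked only 3019. The next was on chromosome 7 at 65235012 to 65236048, one of the few R5020 sites over 1 kb, with 14 steps and an E2 partner of 17 steps at rank 6532. Chromosome 2 at 242838556 to 242838866 followed, also with 14 steps, and its E2 partner stood at the lowest E2 score of 16 steps. Then came chromosome X at 99730312 to 99730408 with 13 steps. Sites of 12 steps stood on chromosome 15 (64454901 to 64455606), on chromosome Y (9929947 to 9930181) and on chromosome 5 (178286825 to 178287056). The group of 10 closed with sites of 11 steps on chromosome 11 (66049789 to 66050410), on chromosome 7 (73668468 to 73669050) and on chromosome 4 (18023487 to 18023997). The E2 partners of these 10 sites ranked between 1888, on chromosome 4, and 7736, on chromosome X, of 7742. Besides chromosome 4 with 42 steps, the partners on chromosome 5 with 40 steps and chromosome 12 with 30 steps stood above the median E2 score of 25 steps.

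By E2 score the leading shared sites held R5020 sites of 6 to 9 steps. The first was on chromosome 11 at 72900038 to 72904119, with 360 steps for E2, and the R5020 site inside it at 72902236 to 72902641 had 9 steps and ranked 365 of 9141. Chromosome 17 at 49020935 to 49022710, also with 360 steps, held 2 R5020 sites, of which the stronger, at 49021519 to 49021674, had 8 steps and rank 1521. Chromosome 17 at 55975357 to 55978114 had 357 steps with E2 and a single R5020 site of 6 steps, the lowest kept. Next were sites of 346 E2 steps on chromosome 16 (1240006 to 1244187), 343 on chromosome 5 (167742724 to 167744835) and 341 on chromosome 3 (193876322 to 193878636), all with R5020 sites of 6 steps. Chromosome 16 at 85335999 to 85342074 held 4 R5020 sites, and the widest E2 site of all, chromosome 16 at 88984265 to 88996798 (12534 bp), held 3. Chromosome 7 at 157412020 to 157415804, with 333 E2 steps and an R5020 site of 9 steps at rank 433, was the only one of the 10 with an ER site of T47D cells under E2 and under R5020. Chromosome 14 at 93480907 to 93484899 came last with 330 E2 steps.

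Sites of 1 hormone alone showed the same contrast in form. The strongest site listed with R5020 alone was on chromosome 1 at 155514272 to 155514358, only 87 bp wide, with 22 steps, and this place also held an ER site in T47D cells under R5020, under E2 and under both. It was followed by chromosome 15 at 30241700 to 30241924 with 18 steps and chromosome 16 at 33949461 to 33949696 with 17 steps. The strongest site listed with E2 alone was also the top of the E2 list, chromosome 17 at 38477036 to 38480561, which was 3526 bp wide and had 363 steps. Chromosome 19 at 41426361 to 41428162 and chromosome 11 at 1817186 to 1818562 followed with 351 steps each. Which genes lie at these places was not analysed here.

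The cells that carry PR offer a comparison with another vehicle library. At ER sites of T47D cells under E2, E2 sites shared with R5020 were found again much less often than E2 sites without R5020. Of all E2 sites of PR-deficient cells, 2247 (29%) lay at an ER site of T47D cells under E2. Among those shared with R5020 it was 56 of 1136 (4.93%, 3.74 to 6.35), and among those of E2 alone 2191 of 6606 (33.2%, 32 to 34.3). The intervals lay far apart in each group by E2 score. In the highest-scoring 20% the shares were 7.39% (3.99 to 12.3) of the shared sites and 54.2% (51.5 to 56.9) of the sites of E2 alone. In the lowest-scoring 20% they were 1.9% (0.62 to 4.38) and 16.2% (14.2 to 18.3). They also lay apart in each group by length, with 3.22% (1.85 to 5.18) and 22.1% (19.6 to 24.7) in the longest 20%, and 10.9% (4.51 to 21.2) and 35.6% (33.2 to 38.1) in the shortest 20%. On each of the 21 chromosomes with 10 or more shared E2 sites, the share was lower for the shared sites than for the sites of E2 alone. On chromosome X, with fewer shared sites, it was higher, with 3 of 7 shared sites (42.9%) against 35.3% of the sites of E2 alone.

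**Figure D3:**
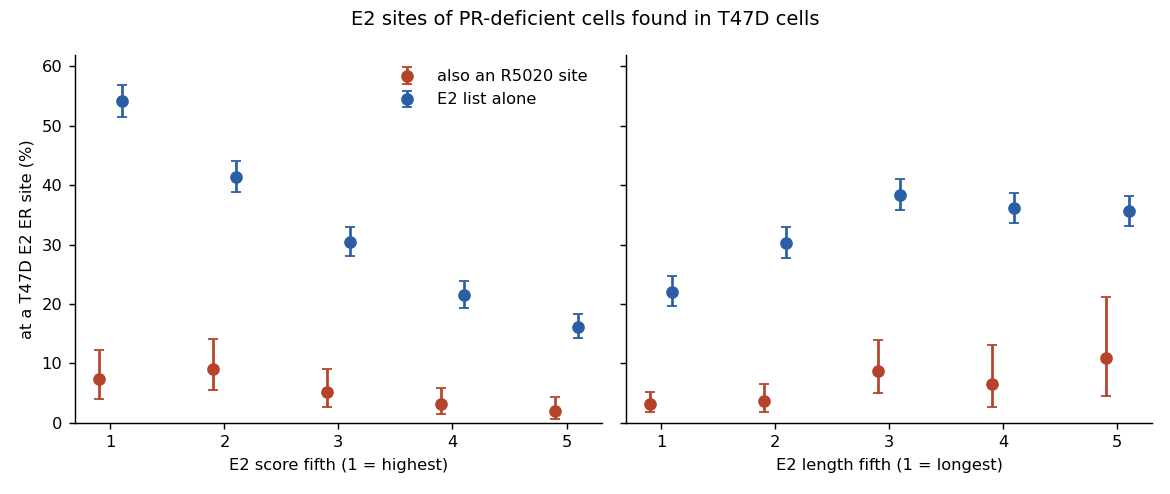
Share of E2 sites of PR-deficient cells that lie at an ER site of T47D cells under E2 (%, vertical axis), for E2 sites also listed with R5020 and for E2 sites of the E2 list alone, in 5 groups of E2 score (left) and of E2 length (right). Points are shares of 1 library and bars are exact 95% intervals over sites; shared sites lie below the others in all groups.

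Against ER sites of T47D cells under R5020 the pooled order of the E2 sites was the reverse, with 88 of 1136 shared sites (7.75%, 6.26 to 9.46) and 306 of 6606 sites of E2 alone (4.63%, 4.14 to 5.17). This order was slight or turned round in some classes by length and by crowding. In the longest 20% of E2 sites the shares were 9.46% (7.03 to 12.4) of shared sites and 8.94% (7.29 to 10.8) of sites of E2 alone, and in the next 20% by length 5.07% (2.86 to 8.22) and 6.07% (4.81 to 7.54). In 1 Mb stretches with over 20 R5020 sites they were 10.1% (7.17 to 13.8) and 9.06% (6.99 to 11.5), and with 11 to 20 they were 5.83% (3.23 to 9.59) and 6.08% (4.51 to 7.98). The intervals overlap in all 4 of these classes. The pooled order held in all 5 groups by E2 score. Intervals lay apart only in the fourth of them, at 9.09% (6.02 to 13) of shared sites and 3.72% (2.75 to 4.92) of sites of E2 alone. It also held in the shorter groups by length and in 1 Mb stretches with 1 to 10 R5020 sites, where the intervals overlap. Other differences between the PR-deficient and the T47D cells cannot be told apart from the loss of PR.

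R5020 sites gave no such split as a whole against the T47D list of their own hormone. Of all R5020 sites, 363 (3.97%) lay at an ER site of T47D cells under R5020, with 46 of 1408 (3.27%, 2.4 to 4.33) among those shared with E2 and 317 of 7733 (4.1%, 3.67 to 4.57) among those of R5020 alone. These intervals overlap. In the highest-scoring 20% of R5020 sites they did not, with 10 of 310 shared sites (3.23%, 1.56 to 5.85) and 126 of 1518 sites of R5020 alone (8.3%, 6.96 to 9.8). The next groups by score gave, from higher to lower, 4.12% (2.27 to 6.81) of shared sites and 2.55% (1.81 to 3.49) of sites of R5020 alone, then 3.79% and 3.71%, 1.17% and 2.86%, and 3.78% and 3.16%. The order thus changed between groups, and the intervals overlap in these 4. Against the T47D list of E2 the shared R5020 sites were the higher ones, with 53 of 1408 (3.76%, 2.83 to 4.89) against 45 of 7733 (0.582%, 0.425 to 0.778) for those of R5020 alone.

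The share of R5020 sites found in T47D cells under R5020 went up with R5020 score through the top class. By contrast, the share found at E2 sites was 14.7% at the lowest score and 19.5% at 4 steps, but 7.98% in the top class. The share in T47D cells under R5020 was 2.94% (2.48 to 3.46) at the lowest score and 3.38% (2.73 to 4.14), 6.21% (4.82 to 7.84), 7.26% (4.84 to 10.4) and 11.3% (6.45 to 17.9) at 1 to 4 steps above it. At 5 or more steps it was 26 of 163 (16%, 10.7 to 22.5). Without chromosome Y and the sites near long stretches without sites, the lowest class gave 2.63% (2.18 to 3.14) and the highest 20.7% (13.8 to 29). The rise was not particular to this T47D list. With all sites kept, these classes gave 3.21% (2.73 to 3.75) and 17.2% (11.7 to 23.9) at T47D ER sites of both hormones. At sites of the sequential ER and PR immunoprecipitation they gave 6.19% (5.52 to 6.91) and 35.6% (28.3 to 43.4). For T47D ER sites of E2 and for each PR list the intervals of these classes overlap.

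R5020 sites were gathered in a few parts of the genome. Chromosomes 7, 11, 16, 12 and 20 held 4285 R5020 sites (46.9% of the list), against 2021 E2 sites (26.1%). Chromosome 7 alone held 1179 R5020 sites and 416 E2 sites, 2.83 R5020 sites for each E2 site. At the other end, chromosome 22 held 74 R5020 sites and 204 E2 sites, chromosome 18 held 38 and 100, and chromosome 2 held 186 and 416. R5020 gave more sites than E2 on 10 of 24 chromosomes. On chromosome Y there were 63 R5020 sites against 3 E2 sites, and 1 of these R5020 sites, named above, was shared. Whether the reads placed there came from chromosome Y was not tested. With chromosome Y left out, 15.5% of R5020 sites and 14.7% of E2 sites were shared. E2 sites on the 5 chromosomes richest in R5020 sites were shared in 454 of 2021 cases (22.5%, 20.7 to 24.3), and E2 sites elsewhere in 682 of 5721 cases (11.9%, 11.1 to 12.8). Both contrasts are a description only, since these 5 chromosomes were picked by their number of R5020 sites. More R5020 sites there leave more to meet an E2 site.

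**Figure D4:**
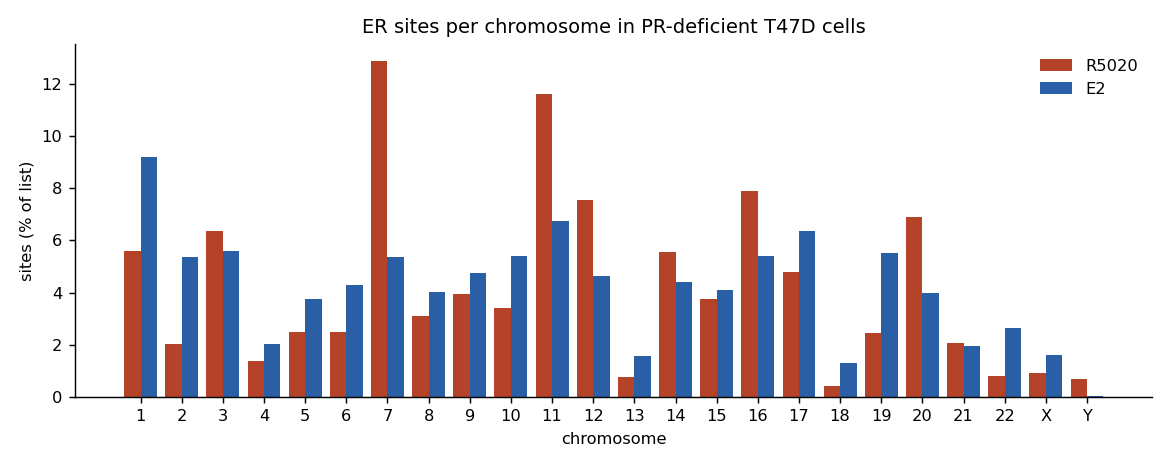
Sites per chromosome as a share of each list (%, vertical axis) for R5020 and E2 in PR-deficient cells, 1 library each. Chromosomes 7, 11, 12, 16 and 20, picked by their number of R5020 sites, hold 46.9% of the R5020 sites and 26.1% of the E2 sites.

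Within chromosomes the crowding was sharper. When the genome was divided into 1 Mb bins, R5020 sites fell in 1539 bins with a median of 2 and a maximum of 133, and E2 sites in 1739 bins with a median of 3 and a maximum of 33. The 100 bins richest in R5020 sites held 3587 of them (39.2%), against 1043 E2 sites (13.5%). The 100 bins richest in E2 sites held 1659 E2 sites (21.4%). The fullest R5020 bin, at 85 to 86 Mb of chromosome 16, held 133 R5020 sites, 5 of them shared, and 11 E2 sites. Next were 195 to 196 Mb of chromosome 3 with 88 R5020 and 13 E2 sites, 5 to 6 Mb of chromosome 7 with 86 and 7, and 105 to 106 Mb of chromosome 14 with 85 and 20. At 49 to 50 Mb of chromosome 20 there were 67 R5020 sites and 11 E2 sites, and none was shared. Neighbouring bins from 64 to 68 Mb of chromosome 11 held 50, 66, 52 and 65 R5020 sites. Some of these bins were also crowded under R5020 in T47D cells, with 92 ER sites at 195 to 196 Mb of chromosome 3 and 48 at 85 to 86 Mb of chromosome 16, but 8 at 5 to 6 Mb of chromosome 7.

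E2 sites were also classed by the number of R5020 sites in their 1 Mb bin. In bins with 1 to 2 R5020 sites, 154 of 1919 E2 sites were shared (8.03%, 6.85 to 9.33), and in bins with over 20 it was 345 of 1007 (34.3%, 31.3 to 37.3). These shares are a description only, since the number of R5020 sites in a bin itself sets how many can meet an E2 site, and a bin without any gave 0 of 1277. The median E2 length also differed, at 999 bp in bins of 1 to 2 and 1394 bp in bins of over 20. The share of E2 sites at an ER site of T47D cells under E2 was 40.5% (37.8 to 43.2) in bins without R5020 sites and 14.7% (12.6 to 17) in bins with over 20. Shared E2 sites stayed below sites of E2 alone within these classes too, with 7.14% (3.62 to 12.4) against 38% (35.7 to 40.3) in bins of 1 to 2 R5020 sites. In bins of over 20 the values were 4.93% (2.9 to 7.77) and 19.8% (16.8 to 23). For R5020 sites themselves the share at E2 sites moved little with crowding, being 15% (12.9 to 17.3) in bins of 1 to 2, at most 17.7% (15.6 to 19.9) in bins of 3 to 5, and 14.2% (13 to 15.4) in bins of over 20.

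**Figure D5:**
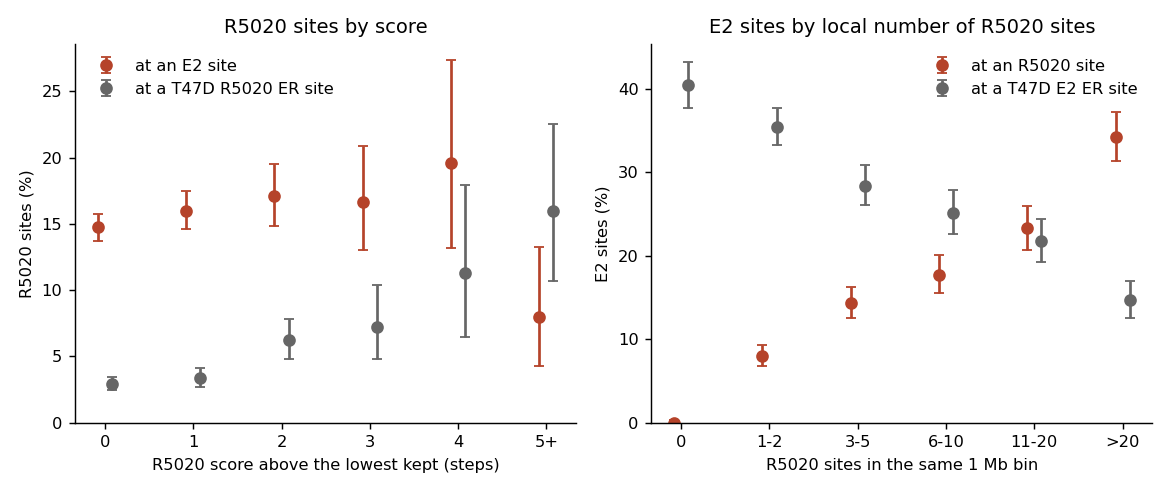
Left, share of R5020 sites (%) at an E2 site of PR-deficient cells and at an ER site of T47D cells under R5020, by R5020 score above the lowest kept (steps). Right, share of E2 sites (%) at an R5020 site and at an ER site of T47D cells under E2, by the number of R5020 sites in the same 1 Mb bin; bars are exact 95% intervals over sites, and the right panel runs from 40.5% to 14.7% for the T47D share.

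PR-deficient cells given both hormones had a list of their own, of 5663 sites, which shares the subtracted vehicle library and is therefore given as a description. Of the R5020 sites, 1842 (20.2%, 19.3 to 21) lay at a site of both hormones, and of the E2 sites 4296 (55.5%, 54.4 to 56.6). Sites found in all 3 lists numbered 1078 by the R5020 list and 868 by the E2 list. A further 764 R5020 sites and 3428 E2 sites were listed with both hormones but not with the other single hormone. They are 9.88% (9.22 to 10.6) of the sites of R5020 alone and 51.9% (50.7 to 53.1) of those of E2 alone. Among shared sites the shares were 76.6% (74.3 to 78.8) for R5020 and 76.4% (73.8 to 78.9) for E2. For E2 sites this order is the opposite of that against T47D ER sites of E2. The largest class of the R5020 list, 6969 sites (76.2%), was in neither other list, with a median length of 226 bp. The corresponding class of the E2 list held 3178 sites (41%), with a median of 20 steps, against 39 steps for the E2 sites also listed with both hormones but not with R5020. By the score of both hormones, sites in all 3 lists were led by chromosome 17 at 55975304 to 55978101 and 49020988 to 49022899 and chromosome 16 at 1239664 to 1245923, which are the places named above for E2.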

How the data were processed

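The submitters' processing notes name Bowtie2, MACS and hg19, without versions or settings. Vehicle signal was subtracted per the labels, which do not say how. Each deposited list comes from 1 library and holds, without a header, chromosome, start, end, length in bp and a score per site. The unit of the deposited score is not given; all scores of the lists are whole multiples of 1 step (within 0.02), so scores were used only within a list. Start and end count from 1.

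Shares and their intervals were obtained with SciPy 1.17.1, tables with pandas 2.3.3 and NumPy 2.4.6, and plots with matplotlib 3.10.9, under Python 3.11.15. The overlap code was tested on simulated lists. Where scores tied, the longer site and then the first by position ranked higher, in the groups of 20% as well. Named sites are the highest-scoring 10 shared sites by each score and the first of the 10 highest of each list alone, with the 3 highest in all 3 lists by the score of both hormones. The sites compared, the 70 planned pairs of a result and another setting, and these rules were chosen with earlier results of these data known. The 1 Mb bins, the 5 leading chromosomes and the split against T47D cells were added after seeing the lists. Motif searches and gene names were left out, since no hg19 genome or annotation was used.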

Additional observations from a re-analysis of the deposited data

How the results depend on the processing

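Of 96 recomputed values, 36 stayed within their interval or 1.5 times and 60 moved. Changes of order were not scored. Raising the lowest score by 1 step turned 9141 R5020 against 7742 E2 sites into 4377 against 7015. Stricter overlap rules leave fewer shared sites by construction; the cause of the other moves was not tested. With overlap of at least 50% of both sites, shares were 0.624% of R5020 sites at E2 sites and 0.736% of E2 sites at R5020 sites, and 0.492% and 50.3% at sites of both hormones in PR-deficient cells (0.319% and 50.3% of sites of R5020 and E2 alone). At T47D ER sites of the same hormone they were 2.56% and 24.5% (3.51% of shared E2 sites, 24.7% of those of E2 alone). With centres within 200 bp they were 6.36% and 7.39%, at sites of both hormones 7.72% and 38.1% (4.95% and 36.9% of single-hormone sites), and 21.1% of E2 sites at T47D E2 sites (3.67% shared, 22.5% E2 alone). Sites of 200 bp gave the same 6.36%, 7.39%, 3.67% and 22.5%.

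With the lowest score raised by 1 step, the 4377 R5020 sites (median 231 bp) gave 14.3% and E2 sites 8.1%, with 18.2% and 53.9% at sites of both hormones, 8.67% for R5020 alone and 30.4% of E2 sites at T47D E2 sites. Raised for R5020 alone, 8.27% of E2 sites were shared and 31.2% of the rest lay at T47D E2 sites. The higher-scoring 50% of each list gave 7.33% and 7.7%, with 9.76% and 61.1% at sites of both hormones (4.44% and 59.5% single-hormone), 3.57% of R5020 sites at T47D R5020 sites, 3.36% of shared E2 sites and 31.7% of others at T47D E2 sites, and a median E2 length of 1180 bp. Lists of equal length gave 16.4% and 13.5%. Merging within 500 bp gave 14.6% of R5020 sites shared and medians of 240 bp for R5020 and 1093 bp for E2. Without sites near long stretches without sites, 16.2% of R5020 sites were shared and 21% lay at sites of both hormones. Sharing within 1 kb was 17.6% and 16.6%, within 10 kb 30.6% and 27.8%.

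Chosen after seeing the data, leaving out the 5 chromosomes of most R5020 sites gave 16.7% and 11.9%, and leaving out bins of over 20 R5020 sites 16.2% and 11.7%, each with 34.7% of sites of E2 alone at T47D E2 sites. In 11 of 11 settings shared E2 sites were at T47D E2 sites less often than others. No paired analysis was possible because every condition has 1 library. Depth is unknown, so a site missing from a list was not shown to be unbound.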

Other observations

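The very top of the E2 list differed from its highest-scoring 20% as a whole, which includes it. Of the 10 highest E2 sites of PR-deficient cells, 0 lay at an ER site of T47D cells under E2, while 10 lay at a site of the sequential ER and PR immunoprecipitation (reChIP) of T47D cells given both hormones and 7 at a PR site of T47D cells given both. Of the 100 highest E2 sites, 25 (25%, exact 95% interval 16.9 to 34.7) lay at a T47D ER site of E2, against 757 of 1548 (48.9%, 46.4 to 51.4) in the highest-scoring 20%. For the reChIP list it was 87 of these 100 (87%, 78.8 to 92.9), against 588 of 1548 (38%, 35.6 to 40.5) in the highest-scoring 20%. These 100 sites were also longer, with a median of 1924 bp against 1360.5 bp. Over all E2 sites, the share at T47D ER sites of E2 was 34.6% in the shortest 20% and 16% in the longest. At reChIP sites it was 8.59% and 30.9%. The part of length in the contrast was not tested. Of the 10 highest R5020 sites, 2 lay at a reChIP site, and of the 100 highest 38 did (38%, 28.5 to 48.3), against 312 of 1828 (17.1%, 15.4 to 18.9) in the highest-scoring 20% of R5020 sites. The reChIP list comes from T47D cells with PR, and all these values describe single libraries.

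At PR sites of T47D cells under E2+R5020 the pooled intervals of shared and unshared sites overlapped for R5020 and lay apart for E2. There lay 46 of 1408 shared R5020 sites (3.27%, 2.4 to 4.33) and 291 of 7733 sites of R5020 alone (3.76%, 3.35 to 4.21). For E2 sites it was 89 of 1136 shared (7.83%, 6.34 to 9.55) and 766 of 6606 of E2 alone (11.6%, 10.8 to 12.4). Within each group by E2 score these intervals overlapped, and in the third the order turned round, at 8.88% shared and 8.76% of E2 alone. By length the order held in each group. The intervals lay apart in the longest 20%, at 10.9% (8.27 to 13.9) and 17.2% (15 to 19.6), and in the next 20%. At PR sites under E2 the R5020 sites gave 1.56% shared (0.982 to 2.36) and 2.87% of R5020 alone (2.51 to 3.27), whose intervals lay apart. E2 sites there ran the other way, with 4.67% shared (3.51 to 6.06) and 3.16% of E2 alone (2.75 to 3.61), whose intervals overlapped. At PR sites under R5020 both pairs of intervals overlapped, with 0.994% of shared R5020 sites (0.545 to 1.66) and 0.828% of R5020 alone (0.638 to 1.06), and with 3.61% of shared E2 sites (2.6 to 4.86) and 2.76% of E2 alone (2.37 to 3.18).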
